A study of Homo sapiens with 14 samples.

Results

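The sgRNAs described here target N6-methyladenosine (m6A) sites with an AAC motif at which the pooled library held 1 or 2 sgRNAs. They were chosen from their IDs alone, with no measured value: the ID starts with 2bc and holds the letters AAC, and a site is the ID without its final dot and number. Of the 9077 sgRNAs in the tables, 2110 met this rule (23.2%), at 1756 sites. A single sgRNA stood at 1402 of these sites, and 354 sites had 2 sgRNAs, together 708 sgRNAs. The 2110 sgRNAs were 87.9% of the 2400 sgRNAs whose ID holds AAC. The tables pair the IDs with no gene, genome position or protospacer sequence, so sgRNAs are named by ID only. The last number of the ID was 4 for 467 members, 5 for 395, 6 for 364, 7 for 421 and 8 for 463, and what it stands for is not stated in the sources used here.

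m6A is a common internal mark of mRNA, written by the METTL3-METTL14 complex at short motifs in which the methylated A is followed by C, and read by proteins that act on mRNA decay, splicing and translation. In AAC the methylated A is preceded by a further A, whereas in GAC it is preceded by G. A base editor couples a Cas9 nickase to a deaminase, and changes bases only in a narrow window of the protospacer. FNLS-BE3, a cytosine base editor, converts C to T, and so can change the C of the motif. FNLS-ABE7.10(AW), an adenine base editor, converts A to G, and so can change the methylated A itself or an A beside it.

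Both screens sequenced the integrated sgRNAs from genomic DNA. A549 cells, a lung carcinoma line, carried FNLS-BE3 from a lentivirus under puromycin selection and were then infected with the sgRNA library under blasticidin selection. 1 library was made at day 0, and 2 libraries each at days 10, 20 and 30 of culture, which the study calls biologically independent. The embryonic stem cell line H1, of human origin, carried FNLS-ABE7.10(AW) and the same sgRNA library after the same selections, were differentiated towards definitive endoderm, the germ layer of gut, liver and lung lining, and were sorted for CXCR4, a chemokine receptor that endoderm cells display. The cells with the lowest CXCR4 (CXCR4-) and with the highest (CXCR4+) in 3 independent screens gave 6 libraries. An H1 library from before differentiation was not analysed here. All groups of a screen carry the editor and the library, so the controls are the 1000 non-targeting sgRNAs, which have no site in the genome. Identity of the cells cannot be checked from sgRNA counts.

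Depth was estimated from the step between the values of a library, since the tables hold no raw counts. By this estimate libraries held 14925937 to 16457222 reads in A549 and 8076271 to 11341078 in H1. The median member had 1535 to 1706 reads in the A549 libraries and 804 to 1124 in the H1 libraries. Chi-square values between libraries of the same group ran from 23.8 to 91.6 per sgRNA in A549 and from 34.9 to 82.7 in H1, well over counting noise, and the spread between libraries was therefore taken as the error. The values are normalized counts, meaning reads times 1 factor per library. The log2-fold change (LFC) was taken after adding 1 to each value, over day 0 in A549 and as CXCR4+ over CXCR4- within a screen in H1. 1 member, 2bc25021.0_AAC_6.6, was at 0 in a single library, the CXCR4- library of screen 2, and was among the 7 members left out in H1, where a population's mean had to reach 200.

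In A549 cells, editing that costs growth makes its sgRNA rarer with time and editing that favours growth makes it more frequent. The median LFC of the members stayed near that of the non-targeting sgRNAs over 30 days. Day 10 gave median LFCs of 0.017 and 0.0094 over the 2110 members, day 20 gave 0.013 and 0.015, and day 30 gave 0.030 and -0.00014. In the non-targeting sgRNAs the medians were 0.027 and 0.020, 0.031 and 0.011, and 0.026 and 0.035, in the same order. The 6 member medians and the 6 non-targeting medians overlapped. The median of the members minus that of the non-targeting sgRNAs was -0.0097 ± 0.00067 at day 10, -0.0066 ± 0.016 at day 20 and -0.015 ± 0.028 at day 30 (SD, n = 2 libraries each). At days 20 and 30 the 2 libraries gave differences of opposite sign. An exact two-sided sign test cannot go below p = 0.5 with 2 libraries, and all 6 ratios share the lone day 0 library.

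The spread of LFC among the members was wider at later days, as was that of the non-targeting sgRNAs. The SD over the members was 0.27 in both libraries of day 10, 0.31 and 0.32 at day 20, and 0.49 in both at day 30. Over the non-targeting sgRNAs it was 0.27 and 0.26, 0.29 and 0.32, and 0.47 and 0.48. The LFCs of both replicates share the day 0 library, so ratios between later days were compared. From day 10 to day 20 these ratios had little in common between replicates. Over the 2110 members, the log2 ratio of day 20 over day 10 in replicate 1 and that in replicate 2, which have no library in common, correlated at r = 0.063, those of day 30 over day 20 at r = 0.20 and those of day 30 over day 10 at r = 0.19. The same correlations over the 1000 non-targeting sgRNAs were 0.021, 0.26 and 0.31. In each library of day 30, 0.806% and 1.09% of the members lay below the 1st percentile of the non-targeting sgRNAs, and 1.33% in both libraries lay above the 99th percentile. In both libraries at the same time 1 member (0.0474%) lay below and 2 (0.0948%) lay above. Of the 1000 non-targeting sgRNAs, 1 (0.1%) lay below and 2 (0.2%) above. Of the 4720 GAC sgRNAs at sites with 1 or 2 sgRNAs, 16 (0.339%) lay below and 4 (0.0847%) above. The share of all sgRNAs past these limits was not counted.

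The methods count sgRNAs with a day 30 LFC beyond 1 in size. Here the LFC was averaged over both libraries of a day, and the same threshold was also set at days 10 and 20, where few members passed it. At day 10 no member lay beyond it in either direction, beside 0.0661% of all sgRNAs below -1 and 0.011% above 1, and the exact binomial interval of 0 among 2110 ends at 0.175%. At day 20, 1 member (0.0474%) lay below -1 beside 0.165% of all sgRNAs, and 3 (0.142%) lay above 1 beside 0.0441%. At day 30, 27 members (1.28%, exact 95% interval 0.845 to 1.86%) lay below -1 beside 1.52% of all sgRNAs, and 13 (0.616%, 0.328 to 1.05%) lay above 1 beside 0.705%. Of the 1000 non-targeting sgRNAs, 10 (1%, 0.481 to 1.83%) lay below -1 and 10 above 1. Both shares of the members had intervals that held the share of all sgRNAs and of the non-targeting sgRNAs. The GAC sgRNAs at sites with 1 or 2 sgRNAs had 70 of 4720 (1.48%) below -1 and 32 (0.678%) above 1. These intervals cover counting error only. Each day 30 library taken alone had more sgRNAs past the threshold, members and others alike. Without replicate 1, 58 members (2.75%, beside 2.92% of all sgRNAs) lay below and 42 (1.99%, beside 1.63%) above, and without replicate 2, 60 (2.84%, beside 3.05%) lay below and 40 (1.90%, beside 1.64%) above. Both libraries were below -1 for 8 members (0.379%, beside 0.606% of all sgRNAs) and above 1 for 2 (0.0948%, beside 0.231%). The balance of the directions moved with the scaling: with libraries scaled to equal totals, or to equal medians of the non-targeting sgRNAs, 33 members (1.56%) lay below -1 beside 1.78% of all sgRNAs, and 6 (0.284%) above 1 beside 0.463%, while the non-targeting sgRNAs went to 11 below and 6 above.

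No member had a Benjamini-Hochberg adjusted p under 0.05 at day 10, 20 or 30 by limma, which took the 7 libraries together and day as a category. Over all sgRNAs the day 30 call covered 0% lower and 0.011% higher, and 0% at days 10 and 20. The smallest adjusted p of a member at day 30 was 0.232. At an unadjusted limma p under 0.05, 266 members (12.6%) were counted at day 30, beside 13% of all sgRNAs and 138 non-targeting sgRNAs (13.8%). At day 10 there were 29 members (1.37%, beside 1.4%) and at day 20 there were 66 (3.13%, beside 2.79%). The non-targeting sgRNAs had 15 (1.5%) and 24 (2.4%) at these days. The fit takes 1 spread per sgRNA for all days, yet the chi-square between libraries was 23.8 at day 10 and 91.6 at day 30. The p-values may therefore be too large at day 10 and too small at day 30. Libraries of the same replicate number deviated together over the days. With a replicate block in which day 0 was coded with replicate 1, limma called 4 members lower (beside 0.275% of all sgRNAs) and 17 higher (beside 0.87%), and in the same fit 1 non-targeting sgRNA lower and 12 higher. With day 0 coded midway, a setting chosen after seeing the data, 6 members were called lower (beside 0.485%) and 27 higher (beside 1.45%), and 3 and 22 non-targeting sgRNAs. A linear trend over day called 4 members lower (beside 0.518%) and 20 higher (beside 1.16%), and 3 and 13 non-targeting sgRNAs. In each of these 3 fits the share of members called was below that of all sgRNAs, in both directions. These p-values may be too small, since day 0 has no second library to pair.

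The 27 members below -1 at day 30 were mostly below day 0 at the earlier times as well. Their median LFC was -0.38 at day 10, -0.60 at day 20 and -1.12 at day 30, and 26 of the 27 were below 0 at day 10. The 13 members above 1 had a median LFC of 0.59, 0.65 and 1.05 in the same order, and all 13 were above 0 at day 10. These courses describe sgRNAs picked by their day 30 value, and day 0 is in every ratio. The picked members were sparser at day 0 than the rest. Of the 27, 21 had a day 0 value under the median of all members, 1606, and so had all 13 of the others. The part of this in their LFCs was not tested.

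The member with the lowest LFC was 2bc10018_AAC_5.5, at a site with 2 sgRNAs. Its normalized count was 920.0 at day 0. The replicates were at 560.5 and 663 (day 10), at 581 and 854 (day 20) and at 227 and 389 (day 30). All 6 later libraries were below day 0, and both of day 30 were below all of the others. The mean LFC at day 30 was -1.63 ± 0.54 (SD, n = 2 libraries), with a limma adjusted p of 0.262, of 0.049 with the replicate block and of 0.101 for the linear trend. The non-targeting sgRNA with the lowest mean, NT-925, was at -1.53, from -2.20 and -0.87. The other sgRNA of the same site, 2bc10018_AAC_5.8, was at -0.38 and -0.40 in both day 30 libraries.

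The next members below -1 in both libraries had LFCs closer to the threshold. 2bc19379.1_AAC_3.8 was at -1.38 and -1.08 at day 30, after -0.40 and -1.12 at day 10. 2bc33899_AAC_1.6 was at -1.20 and -1.23, the closest agreement of the replicates among these members. 2bc36499_AAC_3.4 was at 1299 at day 0 and at 496 and 645 at day 30, or -1.39 and -1.01. These 3 were the sole members of their sites. 2bc37805_AAC_2.6 was at -1.20 and -1.10, whereas the other sgRNA of its site, 2bc37805_AAC_2.7, was at 0.39 and 0.47, in the opposite direction. The adjusted p of these 4 members ranged from 0.262 to 0.326 by limma and from 0.069 to 0.14 with the replicate block.

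The 2 members above 1 in both day 30 libraries were each alone at their site. 2bc35763_AAC_2.8 had a normalized count of 1061 at day 0. At day 10 it was at 1566 and 1697, then at 1863 and 2449 (day 20) and at 2718 and 3003 (day 30). It was higher at each later day in both replicates. Its mean LFC at day 30 was 1.43 ± 0.10 (SD, n = 2 libraries), with a limma adjusted p of 0.232, of 0.049 with the replicate block and of 0.013 for the linear trend. 2bc29560_AAC_7.4 was at 1356 at day 0, at 1795 and 1997 on day 10, at 1868 and 1966 on day 20, and at 3501 and 2955 on day 30. Its largest step lay after day 20. Its mean LFC was 1.25 ± 0.17 (SD, n = 2 libraries), with a limma adjusted p of 0.232, of 0.049 with the block and of 0.035 for the linear trend. The highest non-targeting sgRNA, NT-418, had a mean of 1.32, from 1.50 and 1.14, which lies between these members.

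The last number of the ID did not separate the medians. Across the numbers 4 to 8, the median LFC of the members ranged over 0.019 to 0.040 within an A549 library, and the number with the lowest median was 7 or 8 at days 10 and 20, and 5 and 4 in the libraries of day 30. Calls were less even. Below -1 at day 30 were 4 of 467 members with the number 4, 5 of 395 with 5, 4 of 364 with 6, 3 of 421 with 7 and 11 of 463 with 8. The share at 8 was 2.38% (exact 95% interval 1.19 to 4.21%), beside 1.52% of all sgRNAs, and the interval overlapped those of the other numbers. In the day 30 libraries taken alone, 3.67% and 3.24% lay below -1 at 8, and 3.54% and 3.29% at 5. Among the GAC sgRNAs at sites with 1 or 2 sgRNAs, the share at 8 was 0.903% (8 of 886), and the largest share was at 7, 2.13%. Above 1 were 4, 3, 3, 2 and 1 members for the numbers 4 to 8.

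Sites with 1 sgRNA and sites with 2 were also set side by side. Single sgRNAs had 21 of 1402 (1.50%) below -1 and 12 (0.856%) above 1 at day 30. Those that share a site had 6 of 708 (0.847%) below and 1 (0.141%) above, beside 1.52% and 0.705% of all sgRNAs. The difference between single and paired sgRNAs was not tested. At none of the 354 sites were both sgRNAs past the threshold, in the same or in opposite directions. So few paired sgRNAs passed it that such sites would be rare in any case. The same count was not made for pairs of other sgRNAs. The other sgRNA of the 6 low members with a site in common had a median LFC of -0.16, from -0.99 to 0.43, with 3 below 0 and 3 above. Over the 354 sites, the mean LFC of both sgRNAs at day 30 correlated at r = 0.064 (Spearman 0.073), and these points share the site and the libraries. The last numbers of both sgRNAs differed by 1 at 298 sites, by 3 at 42 and by 4 at 14.

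The rule stops at 2 sgRNAs a site. The median LFC of the 708 members at sites with 2 lay between 0.0065 and 0.051 in the 6 A549 libraries, and that of the 234 AAC sgRNAs at the 78 sites with 3 lay between -0.082 and -0.032. All AAC sgRNAs at sites with over 2, 290 at 92 sites, had a lower median than the members in every A549 library, by 0.049 to 0.087 on the log2 scale. The 6 ratios share day 0, and 2 libraries a day cannot give an exact p under 0.5. In H1 the median of the members minus that of these 286 tested sgRNAs was -0.019, 0.11 and -0.0019 in the 3 screens. Of the 290, 7 (2.41%, exact 95% interval 0.976 to 4.91%) lay below -1 at day 30, and the interval held the share of the members.

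In the H1 screen an sgRNA at a site that hinders endoderm formation would be sparser in CXCR4- than in CXCR4+ cells, and one at a site that favours it the reverse. 2103 of the 2110 members were tested, out of 9044 sgRNAs. Screens 1 to 3 gave median LFCs of -0.021, -0.0028 and 0.0088 over the tested members, and of 0.00049, -0.029 and -0.026 over the 997 non-targeting sgRNAs. The members lay lower than the non-targeting sgRNAs in screen 1 and higher in screens 2 and 3. The difference was 0.013 ± 0.030 (SD, n = 3 screens), less than its spread, and an exact sign test cannot go below p = 0.25 with 3 screens. The SD of LFC over the members was 0.47, 0.63 and 0.44, and over the non-targeting sgRNAs 0.45, 0.58 and 0.43. Over the 2103 members, the LFCs of screens 1 and 2 correlated at r = -0.0077, those of 1 and 3 at 0.031 and those of 2 and 3 at 0.021. The 3 screens share the sgRNA library but no sequencing library.

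At the thresholds of the methods, with limma in place of MAGeCK, 36 members (1.71%, exact 95% interval 1.20 to 2.36%) were enriched in CXCR4- cells beside 1.74% of all sgRNAs tested, and 45 (2.14%, 1.56 to 2.85%) in CXCR4+ cells beside 2.05%. These thresholds are a one-sided p under 0.05 and a median LFC over the 3 screens beyond 0.58. The study also left out sgRNAs predicted to cause missense mutations, which was not done here, so the counts are not those of the study. Of the 997 non-targeting sgRNAs, 22 (2.21%, 1.39 to 3.32%) were enriched in CXCR4- and 13 (1.30%, 0.696 to 2.22%) in CXCR4+. With a median LFC beyond 1, 6 members were enriched in CXCR4- and 8 in CXCR4+, beside 0.265% of all sgRNAs in each direction, and 3 and 0 non-targeting sgRNAs. With no p, 75 members (3.57%) had a median LFC below -0.58 beside 3.57% of all sgRNAs, and 81 (3.85%, exact 95% interval 3.07 to 4.76%) above 0.58 beside 3.99%. The non-targeting sgRNAs had 39 (3.91%) below and 26 (2.61%, 1.71 to 3.80%) above. Screen by screen, 5 members were below -0.58 in all 3 (0.238%, beside 0.232%) and 5 were above 0.58 (0.238%, beside 0.21%), against 4 (0.401%) and 0 of the 997 non-targeting sgRNAs, where 0 allows up to 0.369% by the exact interval. Leaving out a screen raised the counts of members and of all sgRNAs. Leaving out screen 1 gave 64 members in CXCR4- (3.05%, beside 2.68%) and 77 in CXCR4+ (3.67%, beside 3.24%). Without screen 2 there were 48 (2.29%, beside 2.3%) and 53 (2.52%, beside 2.38%), and without screen 3 there were 78 (3.73%, beside 3.71%) and 87 (4.16%, beside 4.34%).

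No member reached an adjusted p under 0.05 in H1 by limma with Benjamini-Hochberg adjustment, and the call covered 0% of all sgRNAs. At an unadjusted p under 0.05, 89 members (4.23%) were counted, beside 3.76% of all sgRNAs and 32 non-targeting sgRNAs (3.21%). With the screen as a block 39 members (1.85%, beside 1.91%) were enriched in CXCR4- and 50 (2.38%, beside 2.21%) in CXCR4+. In that fit 0 members passed the adjusted p, beside 0.0332% of all sgRNAs, and 135 (6.42%) passed the unadjusted p, beside 5.45%. The smallest adjusted p of a member was 0.671 in that fit. No member lay below the 1st percentile of the non-targeting sgRNAs in all 3 screens, or above the 99th in all 3. This was not particular to the members. The count was also 0 for the 997 non-targeting sgRNAs and the 4704 tested GAC sgRNAs at sites with 1 or 2 sgRNAs. It was 0 as well for the 286 tested AAC sgRNAs at sites with over 2.

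Of all tested members, 277 (13.2%, beside 12.6% of all sgRNAs) were below 0 in all 3 screens and 263 (12.5%, beside 12.3%) above 0. Among the 36 members enriched in CXCR4-, 27 were below 0 in all 3. The 36 were picked by the LFCs of these same screens, so this agreement is in part built in. So is the separation of the populations in the members named next. Of these 27, 2bc18072_AAC_2.7 had the smallest p, with 1789, 2012 and 1485 normalized counts in the CXCR4- libraries of screens 1 to 3 and 1183, 729 and 1190.2 in the CXCR4+ libraries, and the populations did not overlap. Its LFC was -0.60, -1.46 and -0.32, with a two-sided limma p of 0.00306 and an adjusted p of 0.9997. 2bc10053.0_AAC_8.6 had LFCs of -1.30, -0.94 and -1.22, the lowest median of the 5 members named here, and its CXCR4- library of screen 1 was at 1981 against 821 and 803 in the others. 2bc26772_AAC_4.5 had LFCs of -0.67, -1.04 and -1.31. 2bc36503_AAC_6.6 had the narrowest spread, with -0.81, -0.89 and -0.79. 2bc35178_AAC_7.5 was at -0.72, -0.42 and -0.58. Of these 5 members, 2bc10053.0_AAC_8.6 and 2bc26772_AAC_4.5 were alone at their sites, and 3 had a partner at the site. The median LFC of the partner was -0.11 for 2bc18072_AAC_2.4, 0.12 for 2bc36503_AAC_6.7 and 0.20 for 2bc35178_AAC_7.4. None of these partners had the same sign in all 3 screens. For comparison, the lowest non-targeting median was that of NT-481, -1.13, with -1.13, -1.64 and 0.16 in the 3 screens.

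Among the 45 members enriched in CXCR4+, 33 were above 0 in all 3 screens. The 45 were also picked by these screens, and the same limit holds for them. Of these 33, 2bc14299_AAC_2.7 had the smallest p and the highest median LFC of the tested members, with 353, 117 and 345 normalized counts in CXCR4- and 547, 736 and 831 in CXCR4+ cells. The populations did not overlap, and the LFC was 0.63, 2.64 and 1.27, with a two-sided limma p of 0.00331 and an adjusted p of 0.9997. It was sparse in H1, and its largest LFC stood on the lowest of these 6 values. 2bc14720.1_AAC_6.6 was closely repeated, with 1115, 1071 and 1039 in CXCR4- and 1689, 1839 and 1732 in CXCR4+ cells, or LFCs of 0.60, 0.78 and 0.74. 2bc11412_AAC_2.6 was at 0.62, 0.89 and 0.56, and 2bc8459_AAC_8.7 at 0.78, 1.62 and 0.49. 2bc25271_AAC_1.8 was at 0.48, 1.22 and 0.67. The partners 2bc8459_AAC_8.8 and 2bc25271_AAC_1.7 had median LFCs of 0.081 and 0.16. The highest non-targeting median was that of NT-909, 0.98, with 1.54, 0.43 and 0.98.

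Enriched members were spread over the last numbers. In CXCR4- they were 7 with the number 4, 12 with 5, 5 with 6, 8 with 7 and 4 with 8, and the shares ran from 0.864% at 8 to 3.04% at 5 (exact 95% interval 1.58 to 5.25%). In CXCR4+ they were 6, 7, 9, 10 and 13, with shares from 1.29% at 4 to 2.81% at 8 (exact 95% interval 1.50 to 4.75%). The intervals of the lowest and the highest share overlapped in both populations. The median LFC ranged over 0.029 to 0.062 across the numbers within a screen. At 8 it was below 0 in all 3 screens, at -0.030, -0.033 and -0.026. The non-targeting medians were 0.00049, -0.029 and -0.026, so in screens 2 and 3 they lay close to those at 8. The GAC sgRNAs with the number 8 at sites with 1 or 2 sgRNAs had 0.0042, 0.024 and -0.0038. Single sgRNAs had 20 of 1397 (1.43%) enriched in CXCR4- and 31 (2.22%) in CXCR4+, and sgRNAs that share a site 16 of 706 (2.27%) and 14 (1.98%), beside 1.74% and 2.05% of all sgRNAs. At no site were both sgRNAs enriched, but with shares this small such sites would be rare in any case. The partners of the enriched members had a median LFC of 0.067 for CXCR4- (n = 16) and 0.019 for CXCR4+ (n = 14), and the LFCs of both sgRNAs of a site correlated at r = -0.014 over 352 sites.

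The screens used different editors in different cells, with the same sgRNAs. The mean LFC at day 30 in A549 and the median LFC in H1 correlated at r = 0.00058 over the 2103 members and at r = 0.027 over the 997 non-targeting sgRNAs, which share no sequencing library. Each threshold alone was passed by few members, and the number of all sgRNAs past both was not counted. 1 member passed the thresholds of both screens. 2bc1915_AAC_5.8 was at 910.2 at day 0 and at 368 and 542 at day 30 in A549, a mean LFC of -1.03 ± 0.39 (SD, n = 2 libraries). In H1 its LFC was -0.60, 3.24 and 0.58 in the 3 screens, so the median stood at the threshold and the screens disagreed in sign. Its CXCR4- library of screen 2 was at 87.4, against 698 and 469 in the others. Its limma adjusted p was 0.337 in A549 and 0.9997 in H1. None of the members named from 1 screen was called in the other. The 7 named from A549 had H1 median LFCs from -0.13 to 0.61, and the 10 named from H1 had A549 mean LFCs from -0.40 to 0.87.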

How the data were processed

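The authors trimmed reads, counted them per sgRNA and, by the methods, deposited 1 table per screen of normalized counts, treated here as a signal per sgRNA. CASAVA 1.4, cutadapt and MAGeCK stand in the submitters' processing notes. Every value was a whole multiple of 1 step per library (tolerance 0.05 reads). The lowest values lie far above 1 read, so these steps and the reads from them are estimates. They were used only for depth and for the chi-square values between libraries. Samples were grouped by their labels. limma 3.58.1 in R 4.3.3 (lmFit, eBayes with a trend) was fitted on log2(value + 1) of all 9077 sgRNAs over 7 A549 libraries, with day as a factor, and of 9044 sgRNAs over 6 H1 libraries. The fit takes the lone day 0 library to vary like the others, and all days to vary alike. p-values were adjusted by Benjamini-Hochberg across every tested sgRNA. Tested on simulated data of both screens, limma recovered 200 of 200 sgRNAs at a log2 change of 3. Smaller changes were not simulated. The mean day 30 LFCs of the members lay between -1.63 and 1.43, and their H1 median LFCs between -1.27 and 1.27. Recovery of changes of that size is therefore not known. Shares have exact (Clopper-Pearson) 95% binomial intervals. They cover counting error alone: without molecular identifiers, PCR reads are not independent molecules.

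In A549 the replicate 1 minus replicate 2 difference of an sgRNA at day 10 correlated with that at day 20 (r = 0.570) and at day 30 (r = 0.394), and that of day 20 with that of day 30 (r = 0.636), so the replicate number pairs the libraries, from the data rather than the labels. The H1 libraries of a screen come from the same infected culture by the methods, and their deviations correlated at 0.082, 0.065 and 0.287, against -0.178 to 0.108 between screens. The members, comparisons and rules were chosen with earlier results of these data known. Named were, in A549, the members beyond 1 in both day 30 libraries (at most 5 a direction, by mean LFC) and, in H1, the 5 enriched members of smallest p and equal sign in each population, then members past the thresholds of both screens, and the most extreme non-targeting sgRNAs; 2bc25021.0_AAC_6.6 and the other sgRNA at a site were added after their values were seen. Alternatives were the pseudocount, the scaling, the filters, the thresholds, the block, the linear trend, limma without a trend and leaving out each library or screen. Python 3.11.15 with numpy 2.4.6, scipy 1.17.1 and pandas 2.3.3 served for the rest.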

Additional observations from a re-analysis of the deposited data

How the results depend on the processing

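Of 152 values recomputed for 14 results, 115 kept within 1.5 times the count, or within 1 SD of the difference, and 37 moved. Part of the 115 could not move, so the tally does not measure stability. Leaving out a library of 1 day leaves the counts and medians of the other days as they were. The differences of the medians from the non-targeting sgRNAs moved by less than their SD under every alternative run. For the rescalings and the left-out libraries or screens this was fixed in advance and shows no stability. A rescaling shifts both medians alike, and leaving out 1 of 2 libraries or 1 of 3 screens cannot move a mean by its SD. No member passed the adjusted p in H1 under any alternative. At day 30, mean LFCs above 1 went from 13 to 6 with either rescaling and to 2 (and 8 below) with each library beyond 1. A threshold of 0.58 gave 164 above and 154 below. The share of all sgRNAs past 0.58 in A549 was not computed, so the counts at 0.58 describe nothing particular to the members. At day 20, the 3 above 1 became 1 with the same total or a day 0 value of 500 or more. They became 0 with the same non-targeting median or each library beyond 1. The 1 below became 2 with that median and 0 with each library beyond 1, and 0.58 gave 43 above and 37 below. At day 10, that median gave 1 below, and 0.58 gave 25 above and 14 below. The adjusted p count in A549 went from 0 to 21 with the replicate block, 33 with day 0 coded midway and 24 with the linear trend, and a median LFC beyond 1 left 6 and 8 in H1. Without 1 library each, the counts below and above were 0 to 2 and 0 to 2 at day 10, 1 to 6 and 1 to 4 at day 20, and 27 to 60 and 13 to 42 at day 30, and 0 passed the adjusted p. Without 1 screen each, 48 to 78 were enriched in CXCR4- and 53 to 87 in CXCR4+. The block moved no H1 count by over 1.5 times (39 and 50). The planned count test on whole reads was not run, since the tables hold normalized values and the reads behind them could only be estimated. Whether more libraries or more reads would add calls was not tested.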
